A study of Rattus norvegicus with 42 samples.

Results

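A brain profile to which liver and lung material had been added was set against the profile of brain alone. The mixture held 25% liver, 70% brain and 5% lung (3 arrays, written 25/70/5 below) and the reference was 100% brain (3 arrays). Both groups were chosen by their tissue labels, and their 6 arrays are among 42 in the series. All material came from 1 untreated rat, with the age of the animals given as 9 to 12 weeks, and no strain, sex or genotype is used here. Total RNA of each tissue was isolated with Trizol and an RNeasy cleanup and labelled with biotin, and the labelled cRNA of the tissues was then mixed. The 42 arrays form 14 groups of 3, namely 3 pure tissues and 11 mixtures. The pure liver and lung arrays served here to find in which of these tissues a transcript was higher. The 3 arrays of a group are technical replicates of the same RNA, so p-values reflect scatter between arrays and say nothing about other animals. The comparison asks which foreign transcripts appear in a brain profile and which brain transcripts fall when 30% of the material is replaced.

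Liver devotes much of its RNA to proteins it secretes into blood, such as albumin, clotting factors and complement, and to enzymes that handle drugs, steroids, bile acids and nitrogen. Lung makes surfactant in alveolar type 2 cells and secretory proteins in airway club cells, and holds many vessels and white blood cells. Brain is known for transcripts of synapses, ion channels, myelin and astrocytes. A transcript made by brain alone keeps 70% of its level in the mixture, a difference of -0.51 on the log2 scale, whereas a transcript absent from brain can appear from a very low level, so rises and falls have different possible sizes. In bulk material fewer cells of a type and less RNA per cell cannot be told apart.

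Values are RMA levels on the log2 scale, read probe set by probe set. The level of a probe set depends on its own sequence as well as on its transcript, so groupings of probe sets by level below are rough and order no genes by abundance. The median level was 5.76 to 5.78 in the mixture arrays and 5.71 to 5.74 in the brain arrays. The median SD between replicate arrays was 0.08 in the mixture and 0.09 in brain, and the number of arrays limits the precision. The 27 probe sets of the dap, lys, phe, thr and trp bacterial controls read low, at 2.39 to 3.70 in the 6 arrays, so a fold against a brain level in that range is approximate. The pure tissues carried their own markers. The median level of the neuron and synapse list was 10.48 in brain, 4.34 in liver and 4.49 in lung, that of plasma proteins 13.07 in liver and that of alveolar type 2 genes 11.94 in lung. One array outside both groups, replicate 2 of the 60/35/5 mixture, had hybridisation controls that stood apart (bioB at 9.35 against 7.65 and 7.88 in its replicates). It enters the spread of the fit, and without it 3297 probe sets rose and 7938 fell.

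Of 31042 probe sets tested, 3262 rose in the mixture and 7725 fell at an adjusted p under 0.05 (limma, Benjamini-Hochberg), which is 10.5% and 24.9% of all. The rises were few and large and the falls many and small. A rise of at least 2-fold was called for 1105 probe sets (3.56%), of at least 8-fold for 342 and of at least 64-fold for 49. A fall of at least 1.5-fold was called for 93 and of at least 2-fold for 1, and 248 fell by more than the replaced share, past -0.51. Counted by gene, with 1 probe set each, 2238 of 14217 genes rose, 799 of them at least 2-fold, and 4013 fell. The split of calls depended on how arrays were levelled. Higher calls made up 29.7% of all calls as deposited, 21.3% after median centring, 67.6% after levelling on probe sets alike in the 3 pure tissues, and 99.4% after a shift by the hybridisation controls (79.1% without the array that stood apart).

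The whole distribution was displaced as deposited. The median difference of all probe sets was -0.11, against 0.07 for the sum of the pure tissues weighted by share. Among 6855 probe sets whose pure tissue means lay within 0.5 of each other the median was -0.12, and 1131 of these fell while 4 rose. Small falls are therefore given below beside this displacement of about -0.11, which the levelling on those probe sets brought to 0.00, with 4342 rises and 2079 falls. The bioB controls themselves read 7.61 ± 0.15 (SD, n = 3) in the mixture and 7.62 ± 0.09 in brain. No probe set rose whose levels in liver and lung were both below that in brain, while 324 fell although both foreign tissues lay above brain.

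**Figure D1:**
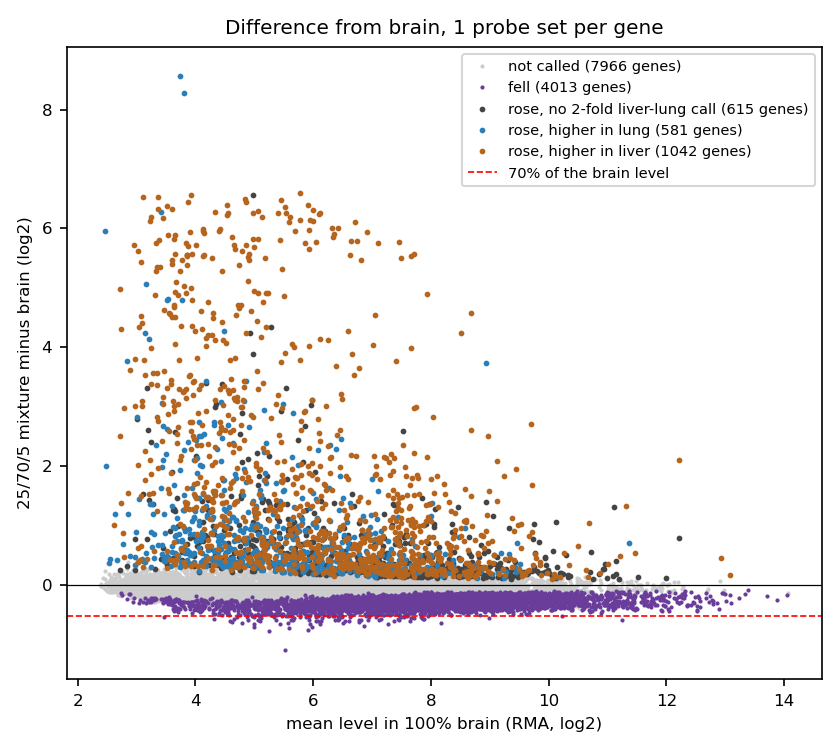
Difference between the 25/70/5 mixture and brain (log2, vertical axis) against the mean level in 100% brain (RMA, log2, horizontal axis), 1 point per gene, coloured by call and, for rises, by whether the gene was called at least 2-fold higher in liver or in lung. Rises reach 8.57 and the falls, 4013 genes, form a narrow band mostly between 0 and the dashed line at 70% of the brain level (-0.51), with Slc35d3 at -1.10 the lowest.

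The home tissue of a foreign transcript was read from liver against lung alone (at least 2-fold, adjusted p under 0.05), without the brain arrays. Of the 3262 probe sets that rose, 1514 were higher in liver, 832 higher in lung and 916 had no such call. Among rises of at least 2-fold the numbers were 761, 207 and 137. A gene can be called newly visible when it lay below the lower quartile of brain levels (3.99) and reached more than the brain median (5.72) in the mixture. Of 131 such genes, 108 were liver genes, 18 lung genes and 5 had no home tissue among these.

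The largest rises from liver were in secreted proteins and metabolic enzymes. Itih4, a heavy chain of the inter-alpha-trypsin inhibitors of plasma, read 5.58, 6.06 and 5.69 in the 3 brain arrays and 12.40, 12.30 and 12.40 in the mixture. Its difference was 6.59 ± 0.07 (SE), a 96.5-fold rise (limma, adjusted p = 2.9e-39), and pure liver read 13.35. All mixture arrays lay far above all brain arrays, which differed among themselves by less than 1 unit.

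Hsd17b6, a steroid dehydrogenase, went from 3.78, 3.98 and 3.99 in brain to 10.42, 10.49 and 10.55, a 94.7-fold rise. Sult1b1, a sulfotransferase, went from 2.92, 3.23 and 3.16 to 9.68, 9.56 and 9.66, a 92.2-fold rise from a brain level within the range of the bacterial controls. Amylase Amy1 read 3.54, 3.36 and 3.18 in brain and 9.92, 9.81 and 9.92 in the mixture. These 3 genes thus had brain levels little or no higher than those of the bacterial controls. The other leaders were Tdo2, the first enzyme of tryptophan breakdown (4.85 ± 0.38 to 11.34 ± 0.08), the macroglobulin Pzp (5.45 ± 0.14 to 11.93 ± 0.05), the glucuronosyltransferase Ugt2b35, the aldo-keto reductase Akr1b7, the plasma glycoprotein A1bg and F2, which encodes prothrombin (4.54 ± 0.29 to 10.93 ± 0.05). The 10 differences lay between 6.39 and 6.59 and all exceeded the spread between arrays.

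**Figure D2:**
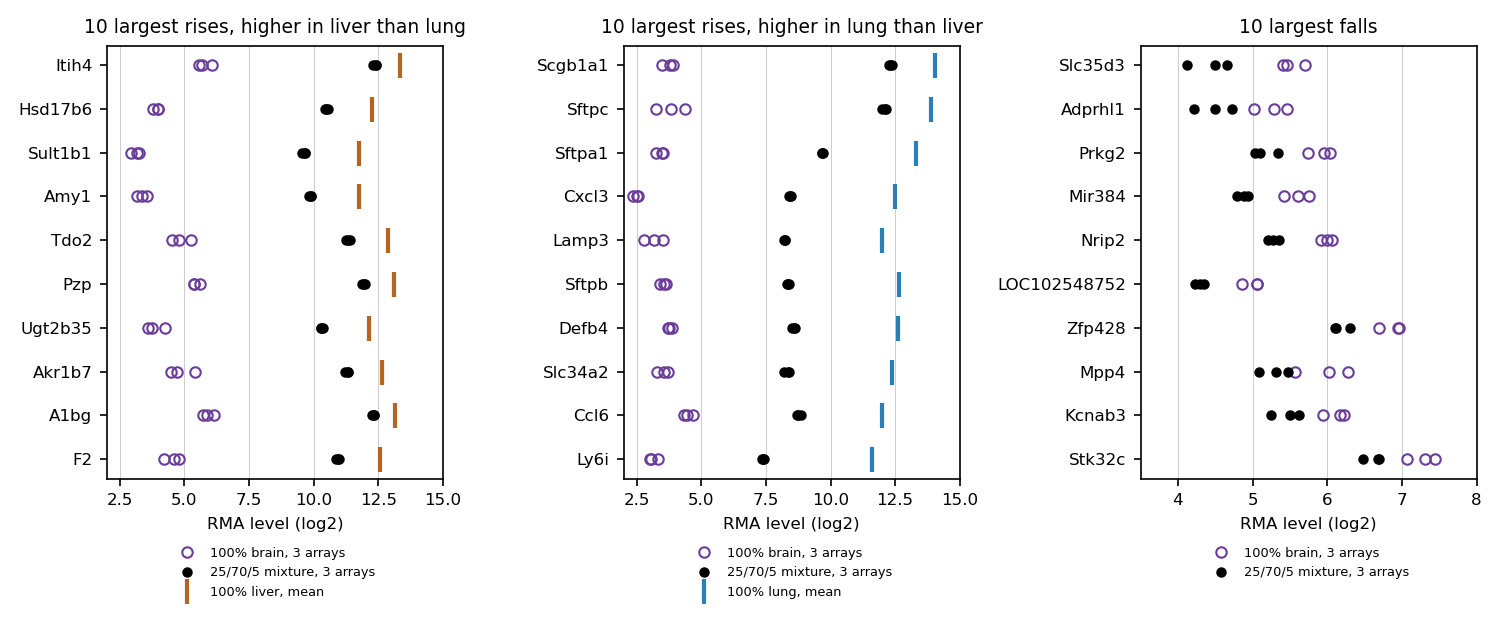
RMA level (log2, horizontal axis) of the 10 largest rises from liver, the 10 largest rises from lung and the 10 largest falls, with open circles for the 3 brain arrays, filled circles for the 3 mixture arrays and a bar for the mean of the pure source tissue. Scgb1a1 and Sftpc come within 2 units of pure lung, and the ranges of the falls are close, with those of Slc35d3 at 4.12 to 4.66 in the mixture and 5.41 to 5.70 in brain.

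Gene lists of the tissues' known functions, drawn up with earlier results of these data known, describe what the foreign material brought. Each count is of list members measured, and over all genes 2238 of 14217 rose. Of 28 plasma proteins 27 rose, with a median difference of 5.85, against -0.10 over all genes. Serpina6, the corticosteroid carrier, read 3.52 ± 0.15 in brain and 9.90 ± 0.08 in the mixture, and the chosen probe set of fibrinogen chain Fgb 5.52 ± 0.17 and 11.88 ± 0.06, while Fgb's other 2 probe sets were not called. The exception was A2m, a macroglobulin, which read 7.60, 7.70 and 7.63 in brain and 7.31, 7.28 and 7.33 in the mixture. A2m fell by 0.33 ± 0.07 (limma, adjusted p = 0.000427), and its levels in pure liver (7.37) and lung (4.21) were below brain.

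Coagulation genes rose in 13 of 13, with F9 from 4.13 ± 0.14 to 10.13 ± 0.07 and antithrombin Serpinc1 from 5.93 ± 0.09 to 11.59 ± 0.07. Complement genes rose in 16 of 16, among them Cfi, the complement protease factor I (6.22), the lectin Mbl2 (6.12) and C3 (5.94, log2 differences). The median differences of both lists were 5.46 and 4.70. The median levels of both lists were 11.80 and 11.43 in pure liver and 4.47 and 5.47 in pure lung. C3 was itself present in lung, at 10.19 against 13.57 in liver.

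Promoter sequence is shown as background for leading secreted proteins, since liver-type promoters are known for binding sites of the factor HNF1. Labelled cRNA was mixed here, and no promoter activity was measured. The letters GTTAAT, part of that site, were searched on both strands of the 250 bases before each RefSeq gene start (build GRCr8). They occurred in 6.45% of all 33469 promoters. Counted by gene, with any promoter sufficing, they were in 6 of 20 matched plasma protein genes and 3 of 11 matched coagulation genes. Shares by promoter and by gene are therefore not strictly comparable. Of 22 matched neuron and synapse genes 1 held them, and of 9 matched alveolar type 2 genes 0. Of the matched leading rises 2 of 9 from liver and 0 of 7 from lung held them, as did 1 of 10 myelin genes and 1 of 6 of the largest falls. Below, capitals mark the match, which begins 82 bases before the start in Alb (chr14:17906980-17907229, - strand) and 38 bases before it in F2 (chr3:98065247-98065496, - strand).
Alb: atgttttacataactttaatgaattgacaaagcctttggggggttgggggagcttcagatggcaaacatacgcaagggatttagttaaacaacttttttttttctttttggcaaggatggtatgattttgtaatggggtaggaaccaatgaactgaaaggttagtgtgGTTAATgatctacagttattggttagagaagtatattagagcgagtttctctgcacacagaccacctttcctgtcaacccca
F2: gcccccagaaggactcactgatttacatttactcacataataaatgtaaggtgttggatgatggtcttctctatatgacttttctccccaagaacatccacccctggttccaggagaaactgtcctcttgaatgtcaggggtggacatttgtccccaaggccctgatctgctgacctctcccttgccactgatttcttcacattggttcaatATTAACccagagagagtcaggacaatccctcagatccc
A match is a description of letters in this window and shows no binding.

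Enzymes and transporters of hepatocytes made up the other liver lists. Of 25 genes of drug and steroid metabolism 22 rose and 3 were not called, with a median difference of 4.71. Bile acid genes rose in 16 of 17, led by the conjugating enzyme Baat (3.92 ± 0.32 to 9.85 ± 0.05), the uptake carrier Slc10a1 (4.15 ± 0.24 to 10.07 ± 0.09) and Slco1b2. The bile acid gene that went the other way was Cyp7b1, an oxysterol hydroxylase, at 4.62, 4.64 and 4.70 in brain against 4.36, 4.24 and 4.23 in the mixture. Cyp7b1 fell by 0.38 (limma, adjusted p = 0.00932), was higher in brain than in liver (3.60) or lung (3.65), and was not called after levelling on the probe sets alike between tissues (-0.27, adjusted p = 0.102).

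All 20 measured genes that handle urea synthesis and amino acids rose, by 0.66 for the glutaminase Gls2 up to 6.49 for Tdo2. Cps1, which starts the urea cycle, read 6.02, 5.84 and 6.31 in brain and 11.87, 11.79 and 11.83 in the mixture. Each of 8 genes of glucose production and glycogen rose, with Fbp1 at 5.99, Pck1 at 5.82 and the glucose transporter Slc2a2 at 5.71. Transcription factors of liver rose in 9 of 11 with a median of 2.35. Hnf4a went from 3.80 ± 0.11 to 8.84 ± 0.04, Onecut1 from 3.99 ± 0.27 to 8.26 ± 0.09 and Creb3l3 from 5.06 ± 0.15 to 8.36 ± 0.05.

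**Figure D3:**
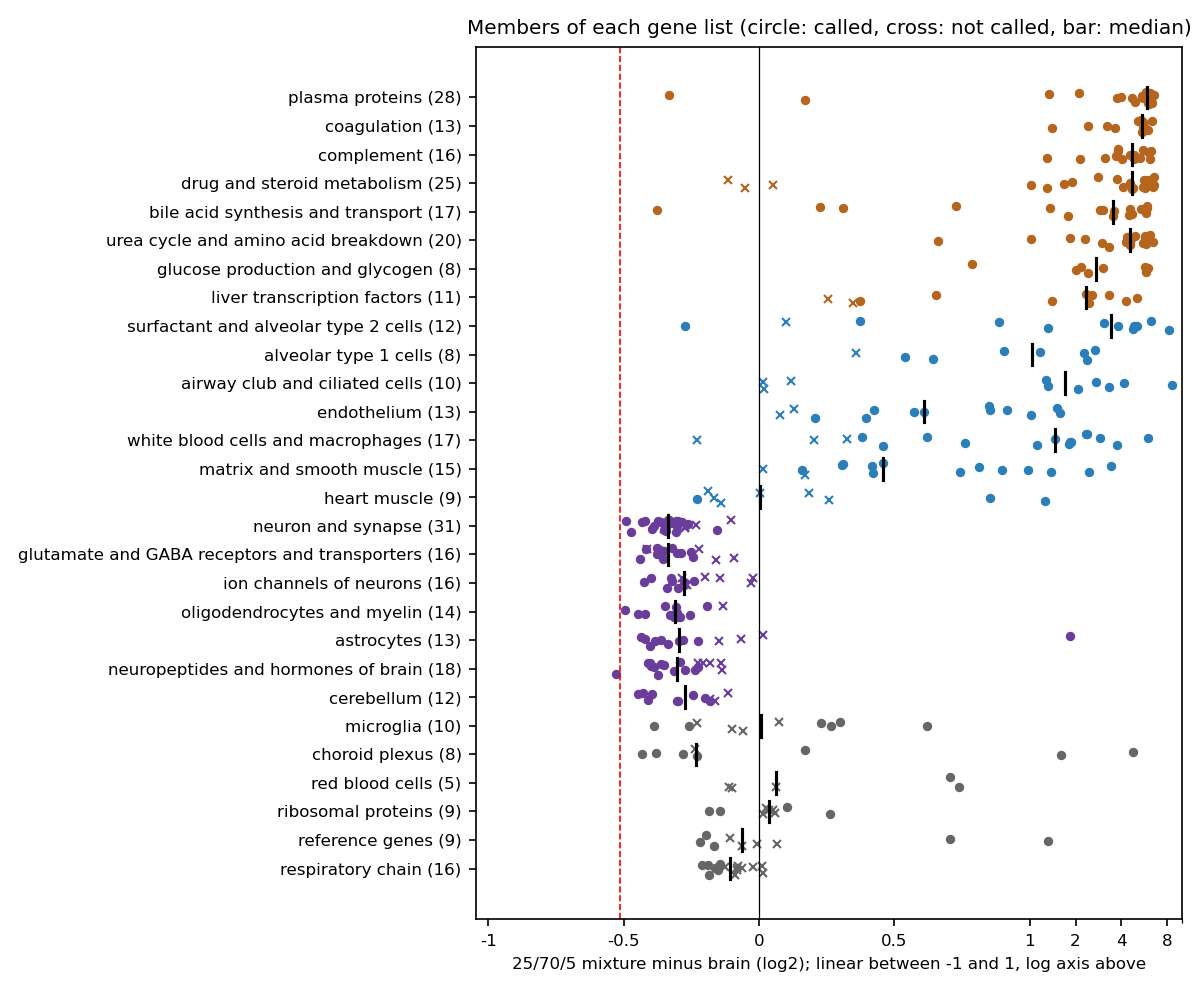
Mixture minus brain (log2, linear between -1 and 1 and logarithmic above) for each measured member of 28 gene lists, with circles for called genes, crosses for genes not called, a bar for the list's median and a dashed line at 70% of the brain level. Medians of the liver lists lie between 2.35 and 5.85, those of the lung lists between 0.01 and 3.44 and those of the brain lists between -0.34 and -0.27, with Aldh1l1 apart at 1.85.

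At 5% of the material lung still contributed the largest rises of all. Scgb1a1, the club cell secretory protein, read 3.91, 3.80 and 3.49 in brain and 12.25, 12.29 and 12.36 in the mixture. Its difference of 8.57 ± 0.08 (SE) is a 380-fold rise (limma, adjusted p = 3.94e-40), and pure lung read 14.04. Surfactant protein gene Sftpc read 3.84, 4.35 and 3.24 in brain and 12.15, 11.99 and 12.10 in the mixture, a 309-fold rise with pure lung at 13.88. In both genes the brain arrays lay at or just above the bacterial controls and the mixture arrays within 2 units of pure lung.

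The promoter of Scgb1a1 is shown for this largest rise, with the letters TATAAA in capitals, known as the TATA box, 41 bases before the start (chr1:215409687-215409936, - strand, GRCr8). On both strands of the same window these letters occurred in 12.9% of all promoters. By gene, with any promoter sufficing, they were in 3 of the 7 matched among the 10 leading lung rises. They were also in 1 of 9 matched alveolar type 2 genes. They were in 3 of 9 matched leading liver rises, 6 of 20 plasma protein, 0 of 11 coagulation, 1 of 22 neuron and synapse and 1 of 10 myelin genes, and in 1 of 6 of the largest falls.
Scgb1a1: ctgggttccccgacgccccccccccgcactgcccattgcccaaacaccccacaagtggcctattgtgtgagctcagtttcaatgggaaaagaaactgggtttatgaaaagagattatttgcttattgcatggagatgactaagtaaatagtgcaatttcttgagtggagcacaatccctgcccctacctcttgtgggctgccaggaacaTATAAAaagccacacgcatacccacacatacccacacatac

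The other 8 leading lung genes rose by 4.24 to 6.27. They were the surfactant genes Sftpa1 (3.51, 3.27 and 3.46 to 9.67, 9.68 and 9.71) and Sftpb, the neutrophil-attracting chemokine Cxcl3 (2.51, 2.56 and 2.34 to 8.39, 8.48 and 8.43), the type 2 cell genes Lamp3 and Slc34a2, the beta-defensin Defb4, the chemokine Ccl6 and Ly6i. For Cxcl3, 2 of 5 probe sets rose, including the brighter chosen one. Ccl6 was also present in liver, at 10.46 against 12.00 in lung, and it rose from 4.49 ± 0.18 to 8.76 ± 0.07. With more liver than lung in the mixture, this rise cannot be credited to lung alone.

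Lung lists rose to different extents. Of 12 type 2 cell and surfactant genes 10 rose, with a median difference of 3.44. Etv5, a transcription factor, read 6.92 ± 0.05 in brain and 6.65 ± 0.03 in the mixture, and its fall of 0.27 (adjusted p = 0.0272) was lost without brain array 1 or 2 or mixture array 1 or 2, with p of 0.0622 to 0.0762. After levelling on probe sets alike between tissues it was -0.16 (limma, adjusted p = 0.249). Type 1 cell genes rose in 7 of 8 with a median of 1.04, among them Emp2 (2.66), the receptor Ager (2.39) and the water channel Aqp5 (2.27). Club and ciliated cell genes rose in 7 of 10 with a median of 1.71, with Sec14l3 at 4.14. Cyp2f4, in the same list, rose by 3.32 but read 9.25 in liver and 8.94 in lung, so that it does not separate lung from liver here.

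Genes of blood vessels, blood cells and connective tissue rose as well, beside 2238 rises among all 14217 genes. Endothelial genes rose in 11 of 13 with a median of 0.61, and all 13 were at least 2-fold higher in lung than in brain. Kdr, a receptor for vascular growth factor, read 7.10 ± 0.12 in brain and 8.68 ± 0.15 in the mixture, and 1 of its 2 probe sets rose. White blood cell and macrophage genes rose in 14 of 17 with a median of 1.46. Among them were lysozyme Lyz2 (8.93 ± 0.15 to 12.67 ± 0.10) and the class II gene RT1-Da (5.66 ± 0.17 to 8.55 ± 0.10). The median level of this list was 5.18 in brain, 7.76 in liver and 10.26 in lung, and its rises were not divided between liver and lung. Matrix and smooth muscle genes rose in 13 of 15 with a median of 0.46, led by Mfap4 (3.43) and the collagen Col3a1 (2.46).

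Heart muscle genes, known from the muscle sleeves of rodent pulmonary veins, rose in 2 of 9 with a median of 0.01, a share near that over all genes (2238 of 14217). Myosin heavy chain Myh6 read 4.02, 4.03 and 3.36 in brain and 4.99, 5.09 and 5.11 in the mixture, with pure lung at 9.32, and 1 of its 2 probe sets rose. Myl7 went from 3.30 ± 0.26 to 4.15 ± 0.08. Ryr2, a calcium release channel also made by neurons, read 9.37 ± 0.07 in brain and 9.14 ± 0.06 in the mixture, a fall of 0.23 (limma, adjusted p = 0.0142). This call was lost without brain array 2 (adjusted p = 0.0627) or mixture array 2 (adjusted p = 0.0613), and after levelling on probe sets alike between tissues (-0.12, adjusted p = 0.276).

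Some genes rose strongly that liver and lung both make. Pigr, the receptor that carries immunoglobulins across epithelium, read 4.96, 4.85 and 5.13 in brain and 11.55, 11.54 and 11.56 in the mixture, a 95.0-fold rise, with 12.91 in liver and 12.04 in lung. The carboxylesterase Ces1d rose 46.9-fold, the paraoxonase Pon3 20.2-fold, the matrix protein gene Dpt 18.9-fold and the prostaglandin carrier Slco2a1 14.7-fold. These 5 were added after their values were seen, as the largest rises without a home tissue call. Of genes often used as references, B2m, a class I antigen chain, rose by 1.32 (11.12 ± 0.03 to 12.44 ± 0.00) and Gusb by 0.71, while 3 of the 9 fell, Ywhaz by 0.22. That count of falls is near the share over all genes, 4013 of 14217. None of the 9 fell after levelling on probe sets alike between tissues, where the Ywhaz difference was -0.11 (limma, adjusted p = 0.0629).

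Several liver genes already had high levels in the brain arrays themselves. Among liver genes over 8 that were at least 2-fold higher in liver than in brain and at least 4-fold higher in brain than in lung there were 48, of which 43 rose, 0 fell and 5 were not called. Over all 14217 genes 2238 rose and 4013 fell. The choice used the same brain arrays and required liver above brain, which favours rises, so this count is no test. Alb, the albumin gene, read 12.20, 12.23 and 12.20 in 100% brain, 5.07 in lung and 14.31 in liver, and 14.32, 14.33 and 14.32 in the mixture. The mixture thus read no lower than pure liver (difference 0.01, limma, adjusted p = 0.839) although liver was 25% of the material, so the measured 4.32-fold rise over brain is not an exact fold. Itih3 read 11.31 ± 0.04 in brain, 3.97 in lung and 13.26 in liver, and rose by 1.34.

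Angiotensinogen Agt, which astrocytes are known to make, rose by 0.28 from 9.50 ± 0.11, and Nipsnap1 by 0.30 from 8.91 ± 0.06. Rup2 went from 8.69 ± 0.06 to 13.27 ± 0.01, with 3.57 in lung. Of the 28 plasma protein genes 16 were at least 2-fold higher in brain than in lung. Whether brain cells or liver material account for these levels in the brain arrays was not tested.

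In the mixture 3 probe sets of 561 that were at least 8-fold higher in liver than in both other tissues were not called below pure liver, although liver was 25% of the material. A second probe set of Alb read 14.10 ± 0.02 in the mixture and 14.15 ± 0.05 in liver, a difference of -0.05 with an interval of -0.20 to 0.10 (95%). Both others belong to Rup2, with intervals of -0.08 to 0.19 and -0.31 to 0.03. These 3 read 9.04 to 10.51 in brain.

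The falls were small, and the largest came from genes of middling level. Slc35d3, a nucleotide sugar carrier, read 5.41, 5.70 and 5.46 in brain and 4.12, 4.49 and 4.66 in the mixture. It fell by 1.10 ± 0.12 (SE; limma, adjusted p = 7.15e-09) to 46.7% of the brain level, below the 70% that was kept, and was the only fall of at least 2-fold. Its mixture arrays all lay below its brain arrays. Adprhl1 fell by 0.77 (5.02, 5.28 and 5.46 to 4.22, 4.49 and 4.73) and Prkg2, a cyclic GMP-dependent kinase, by 0.76 (5.96, 5.74 and 6.03 to 5.03, 5.09 and 5.34). The next 7 fell by 0.65 to 0.72 and include the potassium channel subunit Kcnab3 (6.11 ± 0.15 to 5.45 ± 0.19), the scaffold gene Mpp4 and the kinase Stk32c. In Mpp4 the groups came close without overlapping, with brain arrays at 6.02, 5.56 and 6.27 and mixture arrays at 5.08, 5.32 and 5.47.

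Most neuronal genes fell, by differing amounts, with neuron and synapse genes from -0.49 for Chga to -0.10 for Sv2b. Over all genes 4013 of 14217 fell. Of 31 neuron and synapse genes 26 fell, 0 rose and 5 were not called, with a median difference of -0.34, or 79.2% of the brain level, where 70% of the brain material remained. Chga, a granin of secretory vesicles, read 9.43, 9.38 and 9.39 in brain and 8.98, 8.87 and 8.86 in the mixture, a fall of 0.49 ± 0.11 (adjusted p = 0.000509). Pclo, a protein of the presynaptic zone, fell by 0.47 (7.54, 7.53 and 7.61 to 7.05, 7.09 and 7.12). In both genes all mixture arrays were below all brain arrays, and the brain share read 71.1% and 72.0%.

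Receptors and transporters for glutamate and GABA fell in 12 of 16, a count of 7 without brain array 1. Grm5 (-0.44) was not called without brain array 2 or 3 or mixture array 2 or 3 (adjusted p of 0.075 to 0.0921), and Gria1 (-0.42) not without brain array 2 or mixture array 2 (0.0851 and 0.0776). Ion channel genes fell in 9 of 16. Kcnc1, a potassium channel, read 9.66, 9.74 and 9.74 in brain and 9.25, 9.28 and 9.34 in the mixture, and the sodium channel Scn2a 9.59 ± 0.04 and 9.19 ± 0.02. Neuropeptide and hormone genes fell in 13 of 18, with the stress hormone Crh at -0.53 and the opioid precursor Pdyn at -0.41, for which 1 of 2 probe sets fell. Cerebellar genes fell in 9 of 12, among them Calb1 (10.71 ± 0.03 to 10.26 ± 0.02) and Pcp4 (11.91 ± 0.03 to 11.48 ± 0.06).

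Glial lists behaved alike in size. Of 14 oligodendrocyte and myelin genes 13 fell, with Mag, a myelin glycoprotein, at 9.04, 9.02 and 9.06 in brain and 8.59, 8.58 and 8.60 in the mixture. Of 13 astrocyte genes 9 fell, among them the aldolase Aldoc (12.52 ± 0.06 to 12.08 ± 0.01) and the connexin Gjb6 (-0.42). Aldh1l1, a folate enzyme widely used to mark astrocytes, instead rose from 7.30, 7.29 and 7.31 to 9.15, 9.10 and 9.20, a 3.61-fold rise (limma, adjusted p = 3.94e-26), and read 11.32 in pure liver. The medians of the 7 brain lists lay between -0.34 and -0.27.

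The number of falls called in brain lists rests on the levelling, while the sign of the list medians does not. After levelling on probe sets alike between tissues, the falls numbered 11 of 31 neuron and synapse genes, 1 of 16 receptors and transporters, 2 of 16 ion channels, 8 of 14 myelin genes, 6 of 13 astrocyte genes, 7 of 18 neuropeptide genes and 3 of 12 cerebellar genes. Over all 31042 probe sets 2079 fell in that setting, a share near that of the receptors and transporters. The median of neuron and synapse genes was then -0.23. Of the genes named above Scn2a (-0.29, limma, adjusted p = 0.0789), Pcp4 (-0.32, 0.0597), Grm5 (-0.33, 0.152) and Gria1 (-0.31, 0.124) were then not called. After the shift by hybridisation controls 0 of the genes in these 7 lists were called lower, with a median of -0.27 for neuron and synapse genes. Only 9 of all 31042 probe sets fell in that setting, so the 0 says nothing particular about these lists. That shift raised the median SE over all probe sets from 0.09 to 0.24, and to 0.14 without the array that stood apart.

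Lists with no single home tissue moved both ways, as did all 14217 genes, of which 2238 rose and 4013 fell. Of 10 microglia genes 4 rose and 2 fell (1 without brain array 3). The complement gene C1qc went from 6.09 ± 0.09 to 6.71 ± 0.11 with 8.50 in liver, whereas Tmem119, a microglia marker, went from 6.39, 6.21 and 6.40 to 5.79, 6.06 and 5.99 although lung read 7.74. Choroid plexus genes fell in 4 of 8, a count of 2 without mixture array 1 or brain array 2, and rose in 3. Prlr, the prolactin receptor, was the largest of those rises (5.06, 5.29 and 5.09 to 9.87, 9.92 and 9.94) and read 12.11 in liver. Among red blood cell genes Hbb rose by 0.71 and Alas2, the erythroid heme enzyme, by 0.74, with 3 of 5 not called.

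Genes needed by all cells changed little, and their counts stand beside 2238 rises and 4013 falls among all 14217 genes. Ribosomal protein genes rose in 2 of 9 and fell in 2, with Rplp0 at 0.26 and Rpl3 at -0.19, for which 1 of 2 probe sets fell. Under levelling on probe sets alike between tissues 7 of the 9 rose and 0 fell. Respiratory chain genes fell in 7 of 16 and rose in 0, with Cox6a1 at -0.21 and Cox4i1 at -0.18, and under that levelling 0 fell and 1 rose.

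The level of each probe set was then set against the sum of the pure tissue levels weighted by the labelled shares. In 94.7% of probe sets the mixture lay within 1.5-fold of that sum, and the median departure was -0.17 on the log2 scale. At an adjusted p under 0.05 and at least 1.5-fold, 59 probe sets departed above it (0.190%) and 1589 below it (5.12%). Those above were 54 liver and 5 lung probe sets, and those below 910 liver, 227 lung and 452 without a home tissue call. Of those below, 1084 had still risen above brain.

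The largest departures above the sum were Scgb1a1 (2.56, or 5.89-fold), Sftpc (2.49) and Lyz2 (2.38), followed by Cyp2c7 (1.69) and Cyp2c12 (1.66), both cytochrome P450 enzymes of liver. Cyp2c7 read 7.48, 7.73 and 7.77 in brain and 13.19, 13.18 and 13.20 in the mixture, against 13.42 in pure liver. The largest below it were LOC102554026, the desmocollin gene Dsc2, Mbnl3, Cyp3a18 and Rtp3, at -1.69 to -1.67. Rtp3 read 3.35, 3.23 and 3.13 in brain and 5.39, 5.33 and 5.28 in the mixture, with 8.92 in liver. Every gene above had a mean of at least 13.15 in its home tissue, and those below read 7.10 to 8.92 in liver.

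Expressed as an apparent share, the mixture level less 70% of the brain level was divided by the level in the foreign tissue. Signal of the other foreign tissue was not subtracted. The lung shares therefore still hold any signal from the 25% liver and are no clean estimate of the 5%. Over the 100 probe sets most enriched in liver the median was 23.7 ± 0.47% (SD over 3 mixture arrays) for the labelled 25%, with single probe sets from 10.96 to 65.2%. Over the 100 most enriched in lung it was 4.42 ± 0.09% for 5%, with single probe sets from 1.77 to 29.9%. Brain transcripts, read directly as mixture over brain, gave 79.9 ± 0.63% for 70%, and all 100 probe sets read above 70%. These values carry no test, and the enriched probe sets were chosen with the pure brain arrays.

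The medians hide a strong dependence on level in liver. Among probe sets at least 8-fold higher in liver than in both other tissues, the apparent share was 7.39% for those at 6 to 8 in pure liver (n = 41), 11.5% at 8 to 10 (n = 196), 18.3% at 10 to 12 (n = 229) and 36.8% above 12 (n = 95). In the last class 83 of 95 exceeded the labelled 25%, and in the first 0 of 41. Lung probe sets ran from 3.46% at 6 to 8 (n = 85) through 4.23% (n = 198) and 5.16% (n = 142) to 6.43% above 12 (n = 26). Brain probe sets did not show it, at 79.0% (n = 224), 79.8% (n = 565), 79.4% (n = 211) and 80.6% (n = 29) for the same classes.

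**Figure D4:**
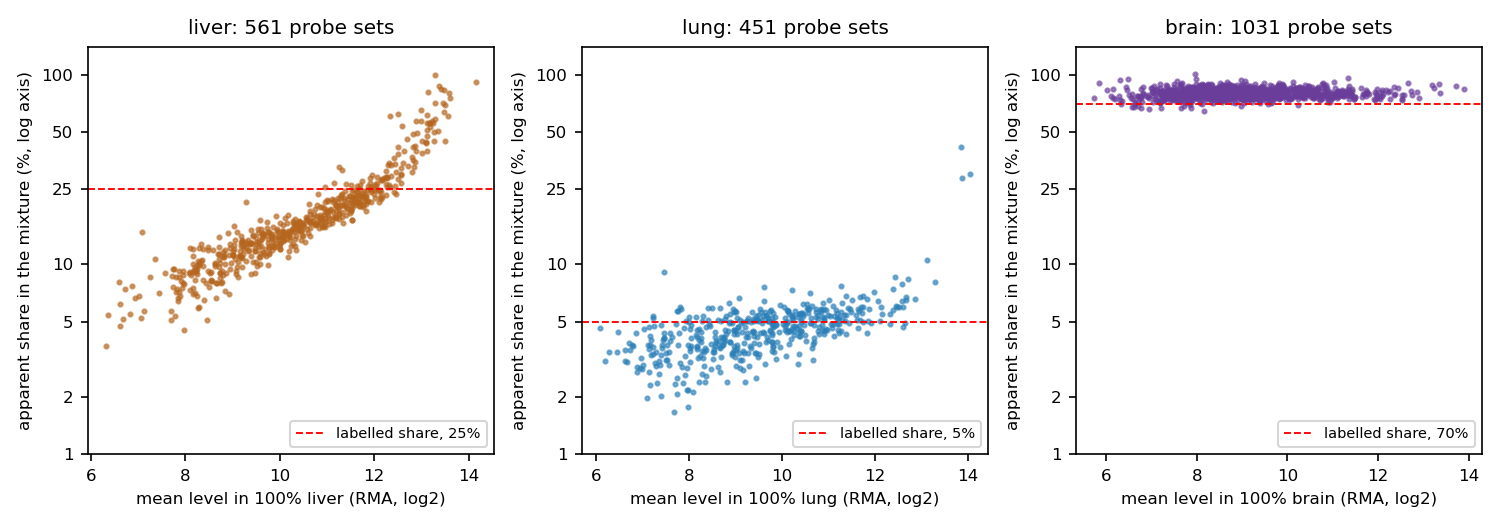
Apparent share of each tissue in the 25/70/5 mixture (%, logarithmic axis) against the mean level in that pure tissue (RMA, log2), for probe sets at least 8-fold higher there than in both other tissues, with a dashed line at the labelled share. Liver climbs from a median of 7.39% to 36.8%, lung from 3.46% to 6.43% with Scgb1a1, Sftpc and Lyz2 far above, and brain stays near 80% at all levels. Signal of the other foreign tissue was not subtracted from the liver and lung shares.

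Named genes show the range. Scgb1a1 and Sftpc read as 29.8% and 28.7% lung and Lyz2 as 41.3%, against a label of 5%. Sftpb (4.92%), Emp2 (4.97%) and Ly6i (5.08%) read close to the label. Among liver genes Cyp2c7 read as 83.8% and Alb as 84.6%, Slc10a1 as 25.0%, Slc2a2 as 17.7% and Rtp3 as 6.99%. A least-squares fit of all 3 shares to the 300 enriched probe sets gave 24.1 ± 0.27% liver, 72.2 ± 0.24% brain and 3.69 ± 0.12% lung.

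Whether a foreign transcript was called at all followed its level in the home tissue. Of probe sets higher in liver than in lung, 1.54% rose when pure liver read under 6, 20.8% at 6 to 8, 66.8% at 8 to 10, 89.4% at 10 to 12 and 97.5% above 12. For those higher in lung than in liver the shares were 0.474%, 5.67%, 25.5%, 49.1% and 53.5%. Some of each class are also made by brain, and 1623 of 5331 lung probe sets and 370 of 3367 liver probe sets fell.

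Transcripts of the main tissue kept more than the labelled 70% in this mixture, and the same reading was made where liver or lung was the 70%. Lung transcripts in 5/25/70 kept 67.2 ± 0.56% (SD, n = 3 arrays) and liver transcripts in 70/5/25 kept 77.0 ± 0.69%, beside 79.9 ± 0.63% for brain here. Of the 100 probe sets per tissue 98 fell in lung, 90 in liver and 84 in brain. In 25/70/5 against brain 24.9% of all probe sets fell. The shares over all probe sets for 5/25/70 against lung and 70/5/25 against liver are not given here, so the counts cannot be ranked between tissues. The 100 were chosen as enriched with the same pure arrays, which favours falls, so these counts are no test. The difference between tissues was not tested, and the tissues added differ as well.

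The same 5% of lung was also present in 60/35/5 and 70/25/5, where more liver left 35% and 25% brain in place of 70%. Over all probe sets 30.7% were higher in 25/70/5 than in 60/35/5 and 21.5% lower, and against 70/25/5 the shares were 30.9% and 22.1%. Of the 10 leading lung genes 8 were lower in 25/70/5 than in either other mixture (limma, adjusted p under 0.05). Cxcl3 read 8.43 ± 0.05, 8.80 ± 0.09 and 9.06 ± 0.01 in the order 25/70/5, 60/35/5 and 70/25/5, and Sftpb 8.35 ± 0.05, 8.74 ± 0.12 and 8.96 ± 0.04. Ccl6, which liver also makes, differed most, by -1.05 and -1.34. Its share-weighted sums of the pure tissues, 9.16, 10.04 and 10.22 in the same order, already differed in that direction.

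Scgb1a1 and Sftpc were not called in either comparison. Scgb1a1 read 12.30 ± 0.06, 12.28 ± 0.01 and 12.33 ± 0.05, and its differences were 0.02 ± 0.08 and -0.03 ± 0.08 (SE). The bioB controls were added apart from the tissue RNA. They read 7.61 ± 0.15 in 25/70/5, 8.30 ± 0.92 in 60/35/5 and 8.06 ± 0.07 in 70/25/5. The 60/35/5 mean rests on the array that stood apart, at 9.35 against 7.65 and 7.88 in its replicates. The bioB controls were thus also lower in 25/70/5 than in 70/25/5, while the other 60/35/5 arrays read close to 25/70/5. Their part in the result was not tested. After a shift by the hybridisation controls 0 and 1 of the 10 genes were lower, and 1 and 2 without the array that stood apart. As deposited, leaving out that array kept both counts at 8.

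**Figure D5:**
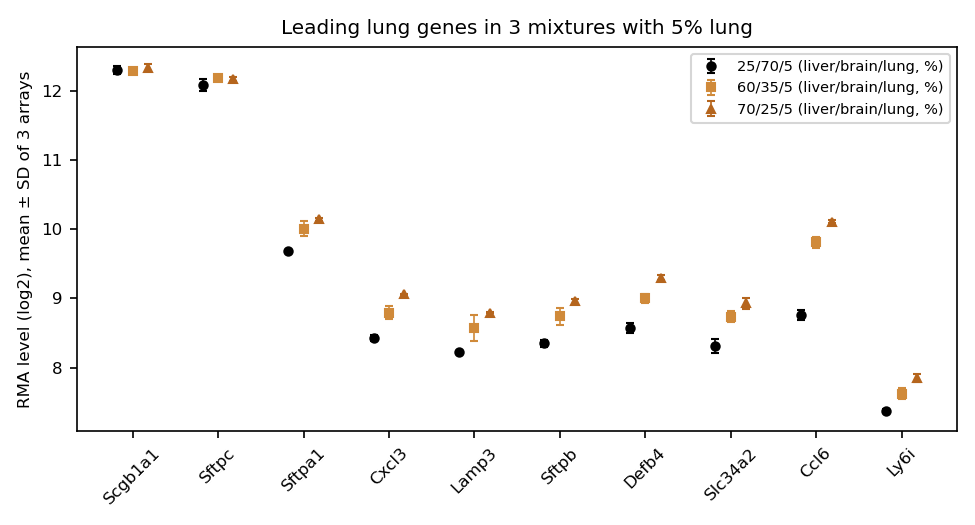
Level (RMA, log2, mean ± SD of 3 arrays) of the 10 leading lung genes in the mixtures 25/70/5, 60/35/5 and 70/25/5, all with 5% lung. Scgb1a1 and Sftpc overlap near 12, and for the other 8 genes the 25/70/5 mixture is lowest, as with Cxcl3 at 8.43 against 8.80 and 9.06.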

How the data were processed

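Expression was measured on Affymetrix rat arrays. The authors deposited log2 values, made with RMA per the labels' protocols, whose version is not stated in what was used here. RMA makes the distributions of arrays alike, which can shift levels between mixtures of unlike tissues.

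All 42 arrays, with 31042 probe sets after 57 controls were left out, were fitted together with 1 coefficient for each group (28 residual degrees of freedom) in limma 3.58.1 under R 4.3.3. Calls are at a Benjamini-Hochberg adjusted p under 0.05 across the probe sets tested. Departures had errors by the delta method. Platform annotation gave 1 symbol for 20826 probe sets, several for 436 and none for 9780; the brightest probe set stood for a gene. No replicate arrays were identical. Named were the 10 largest rises from liver and from lung, the 10 largest falls, the 3 leading members of each list and those moving against it, 5 departures each way and 5 liver genes already high in brain; of these the text gives those that its statements turn on. Members and lists were chosen with earlier results of these data known. Steps were tested on simulated data. Figures used matplotlib 3.10.9 under Python 3.11.15.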

Additional observations from a re-analysis of the deposited data

How the results depend on the processing

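Alternatives covered the scaling, the arrays in the fit, a variance trend, dim probe sets, 1 probe set per gene, the scale of mixing, background subtraction, the number of probe sets and leaving out each array; levelling on probe sets alike between tissues, and leaving out the array with outlying controls, were chosen after seeing the data. No paired analysis was possible because the labels number no replicates. Of 125 named genes 122 were called; these 122 kept their sign in every alternative run, 91 kept their call in all but the hybridisation control curve, and 76 in all. The cause of the changes below was not tested.

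The hybridisation control curve gave 1451 rises and 9 falls, 797 and 395 rises from liver and lung, 21 and 38 departures above and below, apparent shares of 24.3% liver and 83.7% brain, and 0 and 1 lung genes lower than in 60/35/5 and 70/25/5. Without the array with outlying controls it gave 599 falls, 978 rises from liver, 189 departures below, and 1 and 2 lung genes. Levelling on probe sets alike between tissues gave 2079 falls, and 1 probe set per gene 4373, with fewer probe sets tested. Median centring gave 3255 departures below and apparent shares of 19.3% liver, 77.5% brain and 4.32% lung; a repeated quantile normalization gave 25.8%, 78.8% and 4.19%. Departures above and below were 2282 and 33 against a share-weighted mean of log2 values, and 3807 below after the 5th percentile was subtracted, where lung read 4.27%. With 50 probe sets per tissue the shares were 24.3% liver, 79.2% brain and 4.61% lung, and with 200 liver read 21.6%.

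Leaving out each mixture or brain array in turn gave 3045 to 3128 rises, 5669 to 6536 falls, and apparent shares of 79.3 to 80.3% brain. Folds against brain levels in the range of the bacterial controls (2.39 to 3.70) are approximate.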
